A study of Homo sapiens with 3 samples.

Results

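Nucleotide excision repair removes bulky lesions that distort the DNA helix, and the 10 genes described here encode its damage sensors, helicases, scaffold and nucleases: XPA, XPC, ERCC1, ERCC2, ERCC3, ERCC4, ERCC5, ERCC6, ERCC8 and DDB2. They were chosen by name, not by their values, and all 10 were found among the 58051 genes with deposited counts, matched by Ensembl identifier to gene symbols of GENCODE release 44. The RNA came from H9, an established human embryonic stem cell line, of genotype WT and without treatment, with 3 replicates of 1 condition. Total RNA was depleted of ribosomal RNA, and the study used the expression levels to sort genes before it compared the density of DNA breaks at their starts and splice sites. The cells are 1 line, and the sources do not say whether the replicates were separate cultures, so the spread between them may be technical. Because there is 1 condition, no difference between groups was tested. With 3 libraries, no gene was ranked by how closely it follows a member.

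In the pathway, a lesion is found in either of a pair of ways. In global genome repair, XPC senses the distorted helix, and DDB2 binds lesions made by ultraviolet light and hands them on. In transcription-coupled repair, an RNA polymerase that stalls at a lesion recruits ERCC6 (also called CSB) and ERCC8 (CSA). Both routes then load TFIIH, whose helicase subunits ERCC2 (XPD) and ERCC3 (XPB) open the DNA, and XPA, which holds the repair complex together. The nuclease ERCC1-ERCC4 (XPF) cuts the damaged strand on one side of the lesion and ERCC5 (XPG) cuts it on the other. Inherited loss of these genes causes xeroderma pigmentosum, Cockayne syndrome or related disorders. These are background facts, and no damage was applied to the cells here.

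Totals of 8655155 to 12024802 reads per library were counted on genes. Levels are given in TPM, a transcript abundance computed from the deposited counts over the summed exon length of each gene and scaled to the same total in every library, so that genes of different length can be compared. By the rule in the study's methods, applied here to protein-coding genes, those below 0.01 TPM were nonexpressed and the others were cut into equal low, medium and high classes, at 3.35 and 26.96 TPM. The 6 stem cell markers examined were all high, with a mean of 275 TPM or more. Of 12 markers of other cell types, THY1, which stem cells of this kind also display, was high at 145 TPM, MIXL1 and COL1A2 had 22.3 and 25.6 TPM, the other 9 were low or nonexpressed, and no read was counted on CDX2. Their part in the levels of the repair genes was not tested.

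Sequences are shown for the places where a member meets a neighboring gene, at a shared stretch between divergent starts or at a shared exon. XPC on chromosome 3 and ERCC8 on chromosome 5 each start close to a protein-coding gene that runs the other way. The annotated starts of XPC and LSM3 (a spliceosome and mRNA decay factor) lie 216 bp apart, and those of ERCC8 and NDUFAF2 (an assembly factor of respiratory complex I) lie 135 bp apart. The bases between the outermost annotated ends of each pair, in the GRCh38 build and on the plus strand, cover chr3:14178622-14178816 and chr5:60945074-60945176. Capitals mark matches to the GC box GGGCGG and the CCAAT box CCAAT, searched on both strands.
XPC to LSM3: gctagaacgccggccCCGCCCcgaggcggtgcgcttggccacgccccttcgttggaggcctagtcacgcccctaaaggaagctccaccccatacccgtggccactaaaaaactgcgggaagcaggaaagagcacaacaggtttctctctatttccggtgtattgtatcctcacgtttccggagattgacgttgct
ERCC8 to NDUFAF2: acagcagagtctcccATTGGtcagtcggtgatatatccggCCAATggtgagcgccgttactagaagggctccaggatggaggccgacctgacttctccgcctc

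The first of these stretches is 195 bases long with 58.5% GC and 15 CpG, and holds 1 GC box match. The second has 103 bases, 58.3% GC, 6 CpG and 2 matches to the CCAAT box, 1 on each strand. XPC and ERCC8, 1 from each recognition route, are the members with such a partner within 1 kb of their start.

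ERCC5 shares a whole block of exons with BIVM-ERCC5, an annotated read-through gene that joins the upstream gene BIVM to it on the plus strand of chromosome 13. Exon 1 of the canonical ERCC5 transcript is its own, and exon 2 (chr13:102852118-102852293) is the first that both genes use. The lines below give the last 30 bases of the exon before it in lower case, which end at 102846354 for ERCC5 and at 102839803 for BIVM-ERCC5, and the first 30 bases of exon 2 in capitals. The capitals mark what the 2 junctions have in common.
ERCC5 own junction: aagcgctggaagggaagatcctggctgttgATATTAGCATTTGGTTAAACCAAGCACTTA
BIVM-ERCC5 junction: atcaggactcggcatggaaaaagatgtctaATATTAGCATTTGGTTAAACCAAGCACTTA

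All 10 members were expressed, as were 16968 of the 19629 counted protein-coding genes. Of the members, 4 were high (ERCC2, ERCC1, XPC and ERCC3), 4 medium (DDB2, XPA, ERCC4 and ERCC5) and 2 low (ERCC6 and ERCC8), against 28.8% of all counted protein-coding genes in the high class. Among the expressed ones, each class holds 5656 genes by construction. The median of the members was 16.6 TPM, and that of all expressed protein-coding genes 11.7 TPM. From ERCC8 to ERCC2, the means ran from 2.36 to 46.4 TPM.

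Among the genes for damage recognition in the whole genome, XPC (ENSG00000154767, chromosome 3, 14145147 to 14178621, minus strand) had 514, 593 and 401 reads in replicates 1, 2 and 3. This came to 42.6, 42.3 and 39.0 TPM, a mean of 41.3 ± 2.00 TPM (SD, n = 3). Its 3 values were all in the high range, with replicate 3 the lowest. DDB2 (ENSG00000134574, chromosome 11, 47214465 to 47239217, plus strand), the lesion-binding subunit of a ubiquitin ligase, had 270, 319 and 258 reads. Its levels of 21.4, 21.8 and 24.0 TPM, a mean of 22.4 ± 1.40 TPM (SD, n = 3), lay below every value of XPC over summed exons, the length used here. Both genes are known as targets of the transcription factor p53.

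The genes for transcription-coupled recognition were the lowest 2 of the 10. ERCC6 (ENSG00000225830, chromosome 10, 49454168 to 49539538, minus strand), an ATPase that acts on the stalled polymerase, had 216, 199 and 166 reads. Its levels were 3.59, 2.85 and 3.24 TPM, with a mean of 3.22 ± 0.373 TPM (SD, n = 3). That mean was within its SD of the boundary between low and medium, and replicate 1 was above it. ERCC8 (ENSG00000049167, chromosome 5, 60866454 to 60945073, minus strand), the substrate receptor of a ubiquitin ligase, had 147, 221 and 128 reads. At 2.13, 2.76 and 2.18 TPM, with a mean of 2.36 ± 0.349 TPM (SD, n = 3), replicate 2 stood above the others. No ERCC8 value reached the lowest of ERCC6. The genes span 85371 and 78620 bp and have the longest summed exons of the members, 23104 and 26458 bp, which lowers their TPM relative to their reads.

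The helicase genes of TFIIH were both high. ERCC2 (ENSG00000104884, chromosome 19, 45349837 to 45370918, minus strand) had 828, 965 and 729 reads, the most of any member in each library. Its levels were 45.9, 46.0 and 47.3 TPM, a mean of 46.4 ± 0.832 TPM (SD, n = 3) and the smallest relative spread among the 10. ERCC3 (ENSG00000163161, chromosome 2, 127257290 to 127294166, minus strand) had 703, 921 and 654 reads, or 32.1, 36.2 and 35.0 TPM, with a mean of 34.4 ± 2.10 TPM (SD, n = 3). All 3 values of ERCC3 lay below those of ERCC2 and above those of DDB2.

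XPA (ENSG00000136936, chromosome 9, 97674909 to 97697340, minus strand), the scaffold at the verification step, had the fewest reads of the members, 54, 50 and 49. Its exons are also the shortest, at 1816 bp, and its levels were 11.4, 9.10 and 12.2 TPM, a mean of 10.9 ± 1.60 TPM (SD, n = 3). With so few reads, the exact Poisson 95% interval of 1 library is wide and ran from 6.75 to 12.0 TPM in replicate 2, the lowest. Such intervals cover counting error only, since reads copied by PCR are not independent molecules. The 3 intervals of XPA overlap, and a difference between its replicates was not detectable at this depth.

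The nuclease genes differed widely. ERCC1 (ENSG00000012061, chromosome 19, 45407334 to 45478828, minus strand), the partner that positions the cut, had 661, 758 and 589 reads, or 45.5, 44.9 and 47.6 TPM and a mean of 46.0 ± 1.40 TPM (SD, n = 3). ERCC4 (ENSG00000175595, chromosome 16, 13920138 to 13952348, plus strand), the catalytic partner, had 217, 249 and 173 reads, or 5.26, 5.19 and 4.92 TPM and a mean of 5.12 ± 0.181 TPM (SD, n = 3). ERCC5 (ENSG00000134899, chromosome 13, 102845831 to 102875995, plus strand), which makes the other cut, had 117, 134 and 84 reads, or 4.07, 4.01 and 3.43 TPM and a mean of 3.84 ± 0.355 TPM (SD, n = 3). ERCC1 was thus in the high class in every library while the genes of both catalytic nucleases were near the lower end of the medium class.

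**Figure D1:**
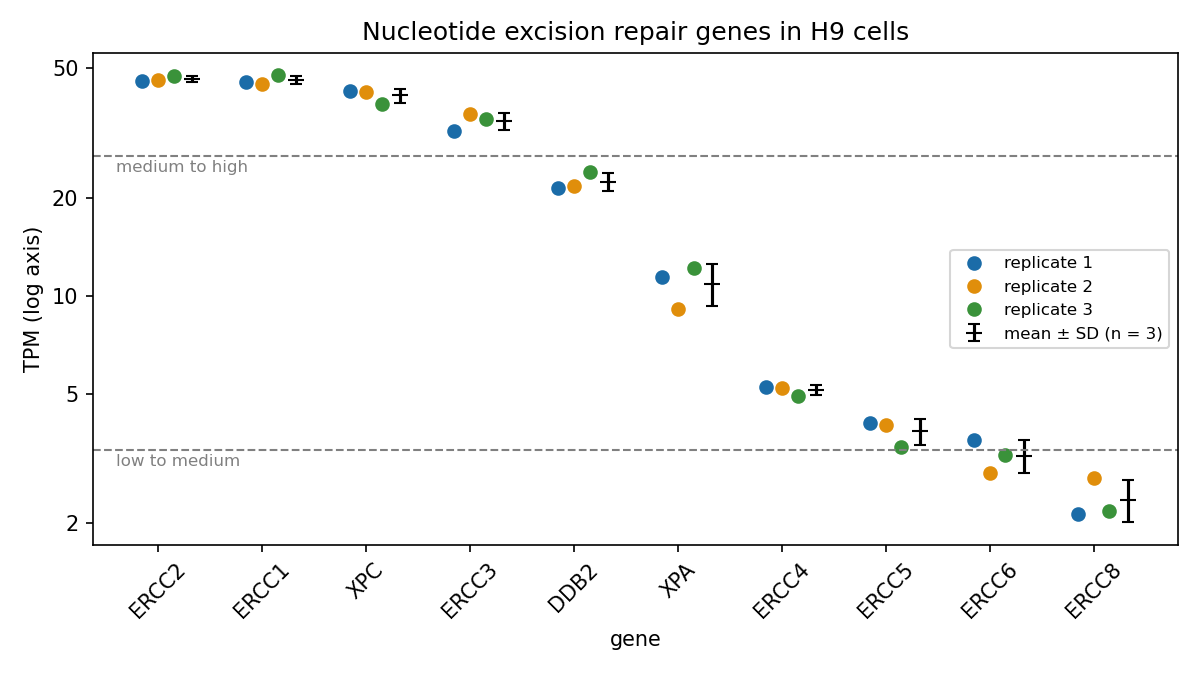
TPM of the 10 members (log axis) in each of 3 replicates of H9 cells, in order of their mean, with the mean and SD beside the points and the class boundaries of 3.35 and 26.96 TPM as dashed lines. ERCC2 and ERCC1 overlap at the top, ERCC5 and ERCC6 overlap near the lower boundary, and the other neighbors are separate.

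The order of levels was almost the same in each library. Of the 45 pairs of members, 43 had ranges over the 3 replicates that did not overlap. The share among pairs of other genes was not computed, so nothing particular to the members is read from this count. ERCC2 and ERCC1 could not be ordered, since their means differed by 0.364 TPM and ERCC1 was higher in replicate 3. ERCC5 and ERCC6 overlapped as well, although ERCC5 was higher in 3 of 3 libraries and their means differed by 0.611 TPM, more than the larger SD of 0.373 TPM. With 3 replicates no p-value is given for such pairs.

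Exon length enters each of these levels, and annotated transcripts beside the canonical one make the summed exons of some members much longer than that transcript. ERCC8 has 34 annotated transcripts and 26458 bp of exons, while its canonical transcript has 9414 bp. With the length of the canonical transcript, chosen after seeing the data, ERCC3 rose to 64.3 ± 3.99 TPM (SD, n = 3) and became the highest member, above ERCC2 at 47.3 ± 1.04 TPM. DDB2 had 36.1 ± 2.41 TPM by that length, joined the high class and passed XPC, which had 31.6 ± 1.41 TPM. Likewise, ERCC6 and ERCC8, at 5.00 ± 0.577 and 4.00 ± 0.584 TPM, joined the medium class. With the longest transcript of each gene, ERCC6 and ERCC8 were again medium, at 5.09 and 4.99 TPM, and did not differ beyond their spread. Under all 3 lengths ERCC2, ERCC1, XPC and ERCC3 were high, XPA, ERCC4 and ERCC5 were medium, and ERCC8 had the lowest mean.

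**Figure D2:**
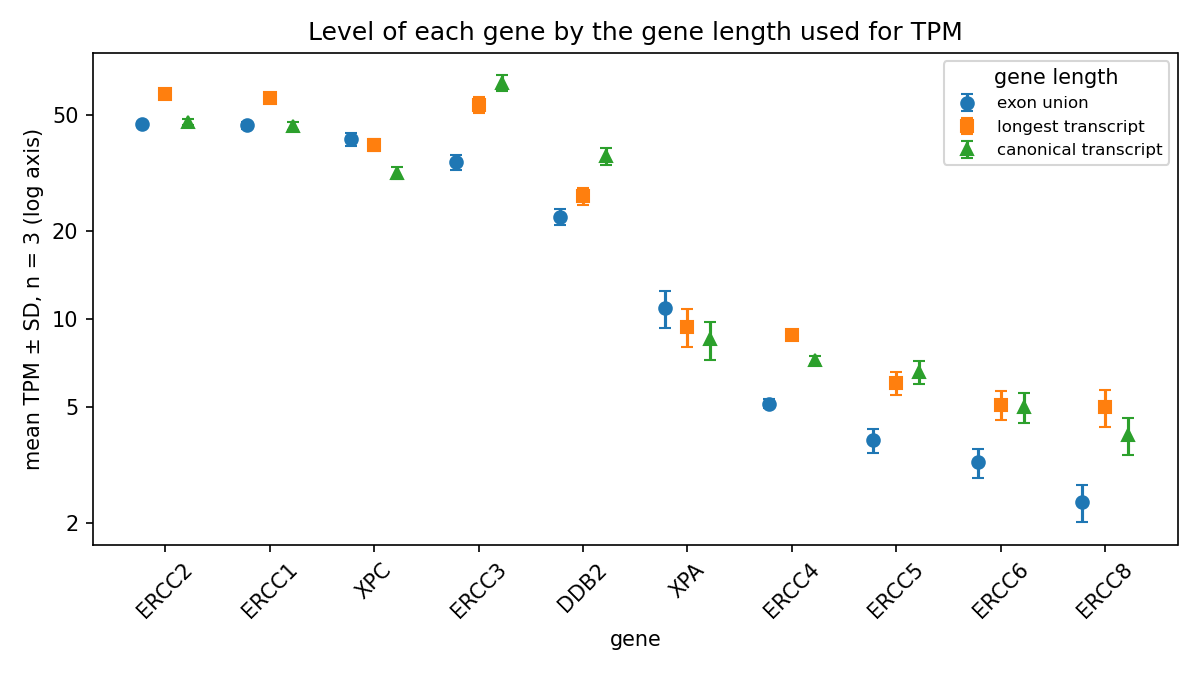
Mean TPM with SD over 3 replicates (log axis) of the 10 members, with TPM computed over the union of exons, the longest transcript or the canonical transcript. ERCC3 runs from 34.4 to 64.3 TPM and DDB2 from 22.4 to 36.1 TPM, while ERCC2, ERCC1, XPC and ERCC3 stay above all values of XPA, ERCC4, ERCC5, ERCC6 and ERCC8.

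Members that work as a pair were compared by their ratio in each library. ERCC1 and ERCC4 form 1 heterodimer, and the level of ERCC1 was 8.66, 8.65 and 9.68 times that of ERCC4 in replicates 1, 2 and 3, a mean of 8.998 ± 0.590 (SD, n = 3). Over canonical transcripts this ratio was 6.34, over the longest transcripts 6.48, and in reads alone, without any length, 3.16 ± 0.208 (SD, n = 3). ERCC1 was thus the higher of the pair under every length tried.

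For the TFIIH helicases the direction depended on the length. ERCC2 was 1.43, 1.27 and 1.35 times ERCC3 over the union of exons, a mean of 1.35 ± 0.0789 (SD, n = 3), and 1.09 ± 0.0636 over the longest transcripts, but 0.737 ± 0.0430 over the canonical ones. Which of both helicase genes has more transcripts can therefore not be told from these counts. ERCC6 was 1.68, 1.03 and 1.49 times ERCC8, a mean of 1.40 ± 0.334 (SD, n = 3). In replicate 2 they were close to equal.

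One partner of DDB2 and one of XPC were also compared with them. DDB1, the common adaptor of CUL4 ubiquitin ligases that carries DDB2 or ERCC8, had 125 ± 1.95 TPM (SD, n = 3), which was 5.81, 5.84 and 5.14 times DDB2, a mean of 5.59 ± 0.396. Over the longest transcripts this ratio was 11.3 and over the canonical ones 7.66, both above those of ERCC1 to ERCC4, and in reads alone it was 17.9. RAD23B, the stabilizing partner of XPC, had 257 ± 16.1 TPM (SD, n = 3) and was 6.33, 6.20 and 6.13 times XPC, a mean of 6.22 ± 0.103, the ratio with the smallest relative spread. Both proteins also work outside repair, RAD23B with the proteasome and DDB1 with many substrate receptors.

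**Figure D3:**
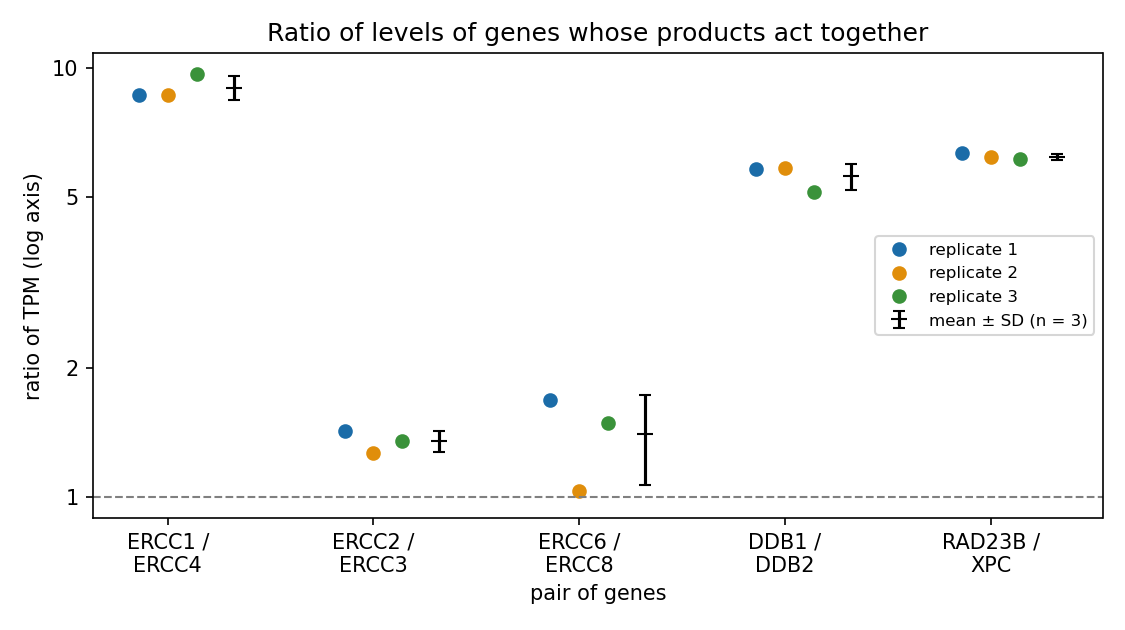
Ratio of TPM (log axis) of 5 pairs of genes in each of 3 replicates, with the mean and SD beside the points and a dashed line at equal levels. Over summed exons, ERCC1 to ERCC4 has a mean of 8.998 and DDB1 to DDB2 one of 5.59, and ERCC6 to ERCC8 runs from 1.03 to 1.68.

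A list of 52 genes of the pathway, which includes the 10 members, placed them beside the other factors of each step. Of the 52, 34 were high, 13 medium and 5 low, with a median of 42.0 TPM. Among the 42 genes that are not members, 30 were high and the median was 49.0 TPM. In the high class there were thus 4 of 10 members against 30 of 42 other genes, and no test was made of this.

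Damage recognition had 7 of 9 genes in the high class and a median of 77.0 TPM, and in it only CUL4B, at 12.3 ± 0.283 TPM (SD, n = 3), was below DDB2. That order holds for summed exons, since by the canonical transcript CUL4B had 42.4 TPM and XPC was the one below DDB2. Transcription-coupled recognition had 3 of 7 high genes and a median of 10.2 TPM. There UVSSA, which works beside ERCC6 and ERCC8, was medium at 3.84 ± 0.544 TPM (SD, n = 3), within its SD of the lower boundary, and STK19 had 10.2 ± 1.70 TPM. USP7, a deubiquitinase with many roles, had 176 ± 8.21 TPM, while XAB2, which also acts in splicing, and the elongation factor ELOF1 had 48.5 ± 3.46 and 42.0 ± 2.25 TPM.

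Of the 10 TFIIH genes, 5 were high, with a median of 26.5 TPM. CDK7, the kinase of the complex, was the highest at 86.7 ± 3.75 TPM (SD, n = 3), followed by ERCC2 over summed exons. By the canonical transcript, ERCC3 at 64.3 TPM and CCNH at 56.1 TPM were above ERCC2 at 47.3 TPM. GTF2H4 was the lowest, with 5, 11 and 14 reads and 1.70 ± 0.949 TPM. Of its exon length, 79.7% is shared with another annotated gene on its strand. That gene is not among those with deposited counts, and any effect of the overlap on the reads of GTF2H4 was not tested. GTF2H2, at 7.76 ± 0.443 TPM, has the near-identical copy GTF2H2C, which had 83, 93 and 61 reads of its own, and the counting could have split or dropped reads between both. At the verification step, XPA was the only one of 4 genes outside the high class, and the subunits of the single-strand binding protein RPA that act with it had 151 ± 5.27 (RPA1), 119 ± 2.12 (RPA2) and 42.1 ± 0.770 TPM (RPA3).

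Incision was the step with the lowest share of high genes, 1 of 4, and had a median of 9.91 TPM. By library its median was 9.84, 9.78 and 10.1 TPM and that of transcription-coupled recognition 9.52, 9.03 and 12.2 TPM, so neither was the lower throughout. SLX4, a platform for ERCC1-ERCC4 and other nucleases, had 14.7 ± 0.527 TPM (SD, n = 3), between ERCC1 and the other nuclease genes. Gap filling and ligation, which uses the enzymes of DNA replication, had 15 of 18 high genes and a median of 50.9 TPM, led by the sliding clamp PCNA at 802 ± 36.4 TPM. Its exceptions were POLE4 at 8.98 ± 0.815, POLD4 at 2.82 ± 0.690, with 21.3% of its exons shared on its strand, and the repair polymerase POLK at 2.36 ± 0.134 TPM. The level of POLK was near that of ERCC8.

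**Figure D4:**
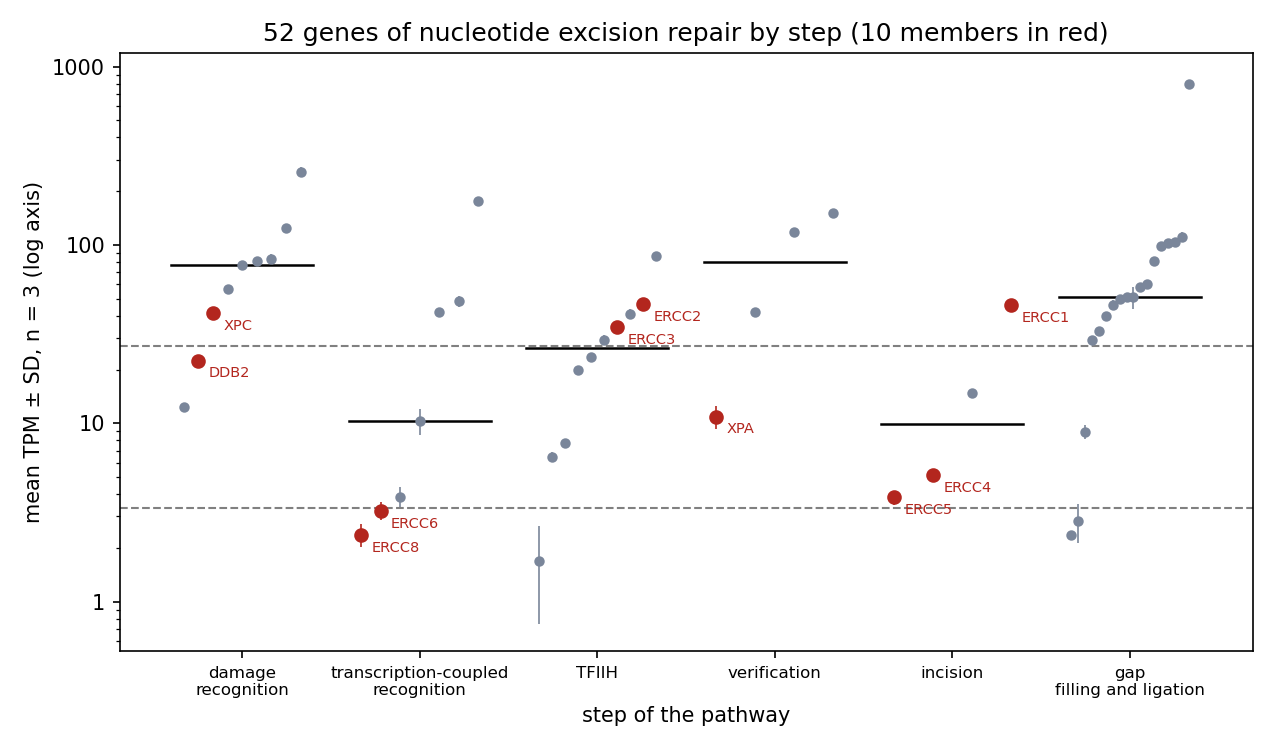
Mean TPM with SD over 3 replicates (log axis) of 52 genes of nucleotide excision repair by step, with the 10 members in red, a black line at the median of each step and dashed lines at the class boundaries. Members lie in the lower part of recognition, verification and incision, apart from ERCC1, and ERCC2 and ERCC3 lie in the upper part of TFIIH.

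Base excision repair, another excision pathway, was set beside them. Of its 15 listed genes 9 were high and none low, with a median of 31.2 TPM, from NEIL1 at 6.07 TPM to APEX1 at 757 TPM. By library this median was 28.3, 27.6 and 40.2 TPM, with replicate 3 the highest. It was above the 16.6 TPM of the members, whose own values by library were 16.4, 15.4 and 18.1 TPM. The members are only a part of their pathway, and over the list of 52 genes the median was 42.0 TPM, above that of base excision repair. The counts depend on which genes are put on a list, and no test was made.

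Exons of 7 members overlap those of another annotated gene, and XPA, ERCC3 and DDB2 are free of such overlap. ERCC1 shares 1593 bp at its 3′ end with POLR1G, a subunit of RNA polymerase I that runs the other way, which is 28.6% of the exons of ERCC1 and 49.8% of those of POLR1G. POLR1G had 671, 703 and 506 reads, close to the 661, 758 and 589 of ERCC1. No source used here states whether strand was used in counting, and how many reads of either gene lie on the other was not tested. XPC shares 24.6% of its exons with the opposite-strand RNA XPC-AS1, which had 111, 136 and 104 reads, and 8.91% with a second gene that had 7 reads or fewer in all. ERCC4 shares 14.1% with an opposite-strand noncoding gene of 55, 82 and 60 reads. ERCC2 shares 7.71% with KLC3, ERCC8 6.21% with the pseudogene GNL3LP1 on its own strand and 0.650% with ERCC8-AS1, and ERCC6 0.870% with a noncoding gene that had 1 read in all.

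The overlap of ERCC5 is of another kind. BIVM-ERCC5, whose junction is printed above, covers 91.7% of the canonical ERCC5 transcript (3564 of 3888 bp) and 33.0% of all annotated ERCC5 exon bases. No read was counted on BIVM-ERCC5 in any library, and for counting error alone a count of 0 allows up to 3 reads per library. However, 99.8% of its exon bases are shared with other genes on its strand. If reads on shared exons were left out, its count would be near 0 at any level, so the 0 does not bound the read-through transcript. The upstream gene BIVM, which shares 25.9% of its exons on its strand, had 94, 100 and 71 reads. Over the pathway list, 9 counted genes share exon bases with a listed gene on the same strand, and 5 of them had no read in any library. Genes without a read are common, since 34216 of all 58051 genes had a count. Whether reads on shared exons were left out of the counts, and thus of ERCC5, was not tested. The level of ERCC5 is uncertain for this reason, and adding the reads of the read-through gene leaves it as it was.

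Start sites were examined in the RefSeq promoter table (GRCh38), which lists windows of 300 bases, 250 before and 50 after each start, and all 10 members had a window at their GENCODE start. GC content of these windows ran from 58.0% in ERCC3 to 65.3% in DDB2, with a median of 62.0%, against 58.7% over 35116 promoters. The median number of CpG was 25 and 14, respectively. The TATA box TATAAA was in none of the 10 windows and in 11.5% of all promoters, on either strand. GGGCGG was in 7 members and 44.95% of promoters, and CCAAT in 2 members (ERCC2 and ERCC8) and 34.6%. The ETS core CGGAAG was in 4 members (ERCC1, ERCC3, ERCC4 and ERCC5) and 19.5% of promoters, and the NRF1 core GCATGCGC in ERCC6 and 3.05%. A match is a string of letters and not a bound site.

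Divergent partners were compared with XPC and ERCC8 over summed exons. LSM3 had 821, 998 and 611 reads and 93.9, 98.2 and 82.0 TPM, a mean of 91.3 ± 8.41 TPM (SD, n = 3), or 2.21 ± 0.110 times XPC. Both were lowest in replicate 3. NDUFAF2 had 130, 135 and 110 reads, fewer than ERCC8 in each library. Over its shorter exons this came to 7.22, 6.45 and 7.17 TPM, a mean of 6.95 ± 0.430 TPM (SD, n = 3), or 3.00 ± 0.579 times ERCC8. For this pair, replicate 2 was the lowest for NDUFAF2 and the highest for ERCC8. With 3 libraries, shared movement was not measured for either pair.

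ERCC1 and ERCC2 lie on the same strand of chromosome 19 with 36415 bp between them, and they had nearly the same level over summed exons. Members also differ in base composition, from 37.7% GC in the exons of ERCC8 to 59.7% in those of ERCC2. Across the 10 members, mean TPM and exon GC content had a Spearman's rho of 0.952. In CPM, without length, rho was 0.721, and with the GC and length of the canonical transcript rho was 0.818. Mean TPM and summed exon length had a rho of -0.66. The points share libraries and the annotation that sets both length and GC. Across the 42 other genes of the pathway list rho was 0.095, and across 16968 expressed protein-coding genes it was -0.071.

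The spread between libraries was set beside the spread that counting alone would give at each gene's reads. The coefficient of variation (CV) of reads scaled to the library total (CPM) was above that level for 6 of 10 members, against 57.1% of the 15997 genes with enough reads for the filter of edgeR. With 3 replicates, counting alone also puts some genes above it. A single gene above the level is thus not shown to vary beyond counting. ERCC8 varied most relative to counting, with a CV of 14.5% against 7.85%, followed by ERCC3 (6.67% against 3.66%) and ERCC6 (11.4% against 7.25%). XPA had the largest CV of the members, 15.4%, and counting alone gives a CV of 14.1% for so few reads. ERCC4 varied least, at 2.31% against 6.91%. The biological coefficient of variation that edgeR fitted to each member lay between 0.0457 for ERCC2 and 0.0972 for XPA, around the median of 0.0676 over all 15997 genes.

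**Figure D5:**
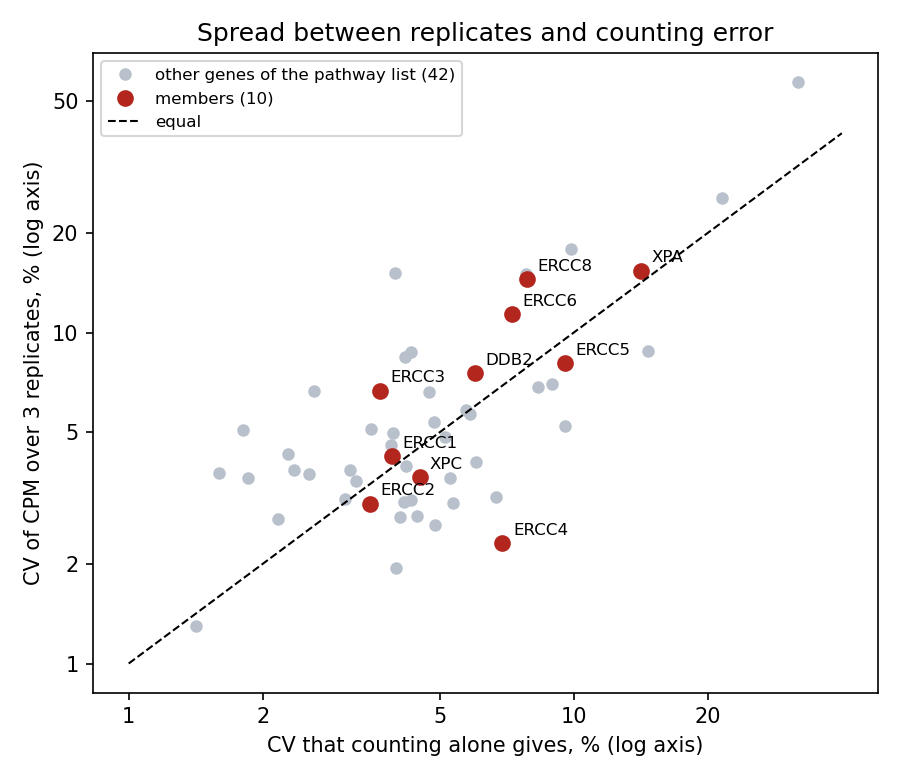
CV of CPM over 3 replicates against the CV that counting alone gives (both in %, log axes) for the 10 members in red and 42 other genes of the pathway list in grey, with a dashed line where both are equal. ERCC8, ERCC6 and ERCC3 lie above the line and ERCC4 lies below it.

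Replicate 3 differed from the others with exon GC content. Over 9946 genes with at least 100 counts in each library, rho between GC and the log2 ratio of replicate 3 to replicates 1 and 2 was 0.408. For replicates 1 and 2, each against the mean of the others, it was -0.210 and -0.365. Over the 10 members rho for replicate 3 was 0.564. The ratio was 0.18 for DDB2, 0.10 for ERCC1 and 0.07 for ERCC2, and -0.21 and -0.14 for ERCC5 and ERCC8. XPA, with 43.0% GC, ERCC6, with 39.4%, and XPC, with 51.2%, went the other way, at 0.28, 0.04 and -0.09. After a correction for GC content the CV was smaller for 6 members, such as ERCC1 at 1.76% in place of 4.23% and ERCC8 at 13.3% in place of 14.5%. It was larger for the other 4, ERCC6 (12.1%), XPA (17.0%), DDB2 (8.11%) and ERCC3 (6.85%). The share of all genes whose CV became smaller was not computed. After the correction the CV was above counting error for 5 members, against 52.7% of 15867 genes. Replicate 2 gave the extreme value of both genes of transcription-coupled recognition, in opposite directions, with log2 ratios to the others of -0.27 for ERCC6 and 0.35 for ERCC8.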

How the data were processed

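RNA-seq of 3 replicates of H9 cells was analyzed. The authors trimmed the reads with Trim Galore (0.4.4) and aligned them to GRCh38 with TopHat2 (2.1.1), according to the methods and the submitters' processing notes. The deposited counts are whole reads per gene without normalization. Which tool, annotation and strand setting made the counts is not given in the sources used here. The Cufflinks values of the study were not used. Depth limits precision for genes with few reads, as given beside XPA.

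Of the identifiers, 98.1% matched GENCODE release 44, and no row held unassigned reads. TPM used the merged exons of each gene and was averaged over replicates, and classes followed the methods of the study over protein-coding genes. CV was compared with that of Poisson counts at the library sizes. Library factors and dispersions came from edgeR 4.0.16 (TMM, filterByExpr, intercept-only design) and DESeq2 1.42.0, run in R 4.3.3. Other steps used Python 3.11.15 with pandas 2.3.3, scipy 1.17.1 and numpy 2.4.6. The CV against counting, the classes and the dispersions were tested on simulated data.

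The members and lists were chosen with earlier results of these data known. Named were the members, the pathway list, genes that share exons with a member and genes with a divergent start within 1 kb, and from the comparison list the highest and lowest. Another comparison list is not reported here. GTF2H2C, BIVM and the markers named singly were chosen after their values were seen. Alternatives concerned gene length, shared bases, read-through counts, the TPM total, scaling, thinning, class rules, GC content and leaving out each replicate.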

Additional observations from a re-analysis of the deposited data

How the results depend on the processing

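The number of members in the high class, 4, stayed within 1.5 times its value under all 17 alternatives, from 3 with a threshold of 1 TPM to 6 with classes over all genes. Those rules also move the class boundaries for every gene. The share of all protein-coding genes that is high under each is not given, so nothing about the members is read from these changes. The number of ordered pairs, 43, lay between 39 and 45 under 7 alternatives, and the number of members with a CV above counting error, 6, between 4 and 6 under 6. Without replicate 3 that number was 4, against 39.7% of genes. Their background of 57.1% of genes was 63.9% over protein-coding genes that reach 100 counts in each library, where 5 of 8 members were above, and 44.1% over all genes with a count.

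The median of the members, 16.6 TPM, was 20.1 with the canonical transcript as length, 24.0 in CPM, which is another unit, and 8.10 over exon bases shared with no other gene. In the last, 3007 genes with under 100 such bases took 49.5% of all TPM. Of the 52 pathway genes 51 were lower and 1, GTF2H4, was higher, at 4.09 TPM. Leaving out each replicate gave 15.9 to 17.3 TPM.

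With the longest transcript, the canonical transcript and the bases shared with no other gene, in this order, the ratio of ERCC1 to ERCC4 (8.998) was 6.48, 6.34 and 10.8, that of ERCC2 to ERCC3 (1.35) was 1.09, 0.737 and 1.46, and that of RAD23B to XPC (6.22) was 5.49, 5.49 and 4.69. The ratio of ERCC2 to ERCC3 turned direction with the canonical transcript. That of DDB1 to DDB2 (5.59) was 11.3 and 7.66 with the first 2 lengths, and that of ERCC6 to ERCC8 (1.40) was 1.04 with the longest transcript. Each shift follows from the lengths used. Leaving out each replicate gave 8.66 to 9.17, 1.31 to 1.39, 6.16 to 6.27, 5.47 to 5.82 and 1.26 to 1.58, in the order above.

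Of the 10 members, the longest transcript moved 8 means by more than their SD, all higher, and the canonical transcript 9, 7 higher and 2 lower. Leaving out mitochondrial genes moved 3, all higher. TMM factors, DESeq2 size factors, the median and thinning to 50% or 10% moved none. The read-through counts changed no value, since there were none. With 3 replicates, leaving out 1 shifts a mean by less than the SD by construction. No paired analysis was possible because all 3 replicates are of 1 group. Depth limits XPA most, with 49 to 54 reads per library.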
